A study of Homo sapiens with 16 samples.

Results

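Untreated K1 cells were compared with untreated TPC1 cells, both human lines labelled as papillary thyroid carcinoma. The members are the 4 libraries of 16 in which a line received the DMSO vehicle alone, 2 from K1 and 2 from TPC1, and they were chosen by line and treatment. Genes on X and Y were left out, so that 15374 genes on chromosomes 1 to 22 were tested of 25369 in the table. The series treated both lines with nutlin, which releases p53 from MDM2, with GSK2830371, which inhibits the phosphatase PPM1D, or with the pair of drugs. The comparison of the vehicle libraries asks how the lines differ before either drug acts. Each culture was plated a day ahead and kept for 24 h in 0.2% DMSO. K1, described as a derivative of GLAG-66, was grown in DMEM, whereas TPC1 was grown in RPMI, each with 10% fetal bovine serum. Each group is 1 cell line, so a p-value here measures the spread between cultures, estimated over all 16 libraries and not from the DMSO cultures alone. Line and medium cannot be told apart.

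Follicular cells of the thyroid form a polarized epithelium in which PAX8, NKX2-1 and FOXE1 drive the genes for thyroglobulin and the thyrotropin receptor. Papillary carcinomas usually activate the MAPK pathway through a RET rearrangement, which in TPC1 joins *CCDC6* to *RET*, or through a *BRAF* mutation, and cells in culture often lose the thyroid programme. Adhesion to matrix through integrins and to neighbours through cadherins sets cell shape and survival, while p53 arrests or kills damaged cells and is held down by MDM2, MDM4 and PPM1D.

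Total counts were 35171459 and 37161241 in K1 replicates 1 and 2, and 36896529 and 72453522 in TPC1 columns numbered 1 and 3. The labels number the TPC1 replicates 1 and 2, so TPC1 libraries are named here by their columns. Levels are counts scaled to library size (CPM) after TMM scaling, with factors of 1.008 and 1.009 in K1 and 1.026 and 0.986 in TPC1. A single count equals 0.0282 and 0.0267 CPM in the K1 libraries and 0.0264 and 0.0140 CPM in the TPC1 libraries. TPC1 cultures differed more from each other than K1 cultures did. The median absolute log2 difference between replicates was 0.0754 in K1 and 0.161 in TPC1, and the variance between replicates was 7.57 and 57.7 times that of counting alone. Values per library are therefore given in the order K1 replicates 1 and 2, then TPC1 replicates 1 and 3, and a gene is said to separate the lines when these values do not overlap.

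Differences are K1 minus TPC1 on the log2 scale, so that positive values are higher in K1. The value after ± is an approximate standard error, the absolute difference divided by the square root of the F statistic of its test. For genes with hardly any counts in a line it is too small, and there the counts of that line limit the precision. A gene was called when its p from the edgeR quasi-likelihood test, adjusted after Benjamini-Hochberg, was under 0.05 and the fold change was above 1.5. Under that rule 7076 of 15374 autosomal genes (46.0%) were called, 3755 (24.4%) higher in K1 and 3321 (21.6%) higher in TPC1. The median difference over all genes tested was 0, and it was also 0 with genes that had hardly any counts in a line set at their bound. More of the extreme fitted differences were higher in K1. Of the called genes 1662 were over 4-fold higher in K1 and 1030 in TPC1, and 733 and 348 were over 32-fold. These counts use the fitted differences and not the bounds, so they include genes with hardly any counts, whose fold is not known. *NKX2-1*, for example, is among the 733 with a fitted difference of 5.69 but a bound of 2.46. A list of genes is described below by how many tested members were called and by its median, to be read against 46.0% and 0. Lists share some members, and no test was made of a list. In bulk RNA a difference in how many cells express a gene and a difference in RNA per cell cannot be told apart.

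The thyroid label was checked against 21 genes of thyroid transcription, hormone synthesis and iodide handling. Of these, 13 passed the filter on low counts, 7 were higher in K1 and 3 in TPC1, and the median was 1.24. *PAX8*, the transcription factor that specifies thyroid follicular cells, stood at 786 and 742 CPM in K1 and 317 and 331 CPM in TPC1, a difference of 1.24 ± 0.0740 (adjusted p = 2.4e-10, edgeR quasi-likelihood test, Benjamini-Hochberg). It was the most abundant gene of the list in both lines. *FOXE1*, its partner in thyroid development, was at 28.6 and 28.8 CPM against 24.9 and 22.3 CPM and was not called (0.28 ± 0.0819). Corrected for GC content and gene length it was called higher in K1, at 0.60. *NKX2-1*, the remaining factor of that trio, reached 0.113 and 0.187 CPM in K1 with no count in TPC1, at least 5.49-fold higher. Such bounds set a line without counts at 3 counts pooled over its DMSO libraries, and like the intervals given below they cover counting error only. *HHEX*, a homeobox factor of the early thyroid, was higher in TPC1, at 2.62 and 2.75 CPM in K1 against 8.03 and 11.03 CPM. Thyroglobulin (*TG*), the precursor of thyroid hormone, was low in both lines, at 2.76 and 2.75 CPM in K1 and 0.158 and 0.308 CPM in TPC1.

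The thyrotropin receptor (*TSHR*) had no counts in any of the 4 libraries, nor had *DIO1*, *DUOXA2* or *TFF3*. The label thus held for *PAX8* and *FOXE1*, while the thyrotropin receptor and some genes of hormone synthesis were absent at this depth. The shorter list of 10 follicular markers, 7 of them tested, summed to 820 and 777 CPM in K1 and 351 and 365 CPM in TPC1, nearly all of it *PAX8*, with 4 higher in K1, 1 in TPC1 (2 without K1 replicate 2) and a median of 1.24. Its members at 0 included *DIO1* and *TSHR*.

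Markers of other cell types were read in the same libraries, and their part in the differences was not tested. Of 9 thyroid C cell markers 5 were tested, 1 higher in K1 (2 without K1 replicate 1) and 2 in TPC1 (median 2.41, or 0 at the bounds). They summed to 0.423 and 0.693 CPM in K1 and 184 and 182 CPM in TPC1, where *GFRA1* led at 138 CPM, and *CEACAM5* was at 0. Of 10 immune markers 4 were tested, 3 of them higher in K1 (median 3.11, or 2.86 at the bounds). Their sums were 68.1 and 58.2 CPM in K1 and 33.7 and 37.5 CPM in TPC1, mostly the lysosomal *CD68*, with *AIF1*, *CD3E*, *MS4A1* and *TYROBP* at 0. Of 10 fibroblast markers 9 were tested, 5 higher in K1 and 2 in TPC1 (median 4.11, or 3.0 at the bounds). They summed to 32.2 and 31.3 CPM in K1, led by *FAP*, and 22.98 and 21.5 CPM in TPC1, led by *PDGFRB*, and *COL3A1* had a single count. The fibroblast count in TPC1 was 0 without K1 replicate 2.

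Endothelial markers, 6 tested of 8, summed to 9.76 and 8.72 CPM in K1, mostly *KDR*, and 1.48 and 1.29 CPM in TPC1, where *TEK* led. Of these, 3 were higher in K1 and 1 in TPC1, with a median of 0.53, and none was at 0 in all 4 libraries. Melanocyte markers, 4 tested of 9, summed to 10.2 and 10.5 CPM in K1 and 9.09 and 8.96 CPM in TPC1, nearly all *MITF*. *S100B*, *SOX10* and *TYR* were at 0, and 2 markers were higher in K1, a count of 0 without K1 replicate 1 or without TPC1 replicate 3 (median 2.71, or 1.09 at the bounds). Colon epithelium markers, 3 tested of 9, summed to 0.508 and 0.587 CPM in K1 and 13.1 and 14.1 CPM in TPC1, nearly all the cadherin *CDH17*. Of these, 2 were higher in TPC1 (median −4.64), and *CDX1*, *CDX2*, *HNF4A*, *KRT20*, *MUC2* and *VIL1* were at 0.

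*RET*, the receptor tyrosine kinase for GDNF family ligands, was at 0.197 and 0.320 CPM in K1 and 42.1 and 48.5 CPM in TPC1. The difference was −7.43 ± 0.170 (adjusted p = 1.86e-15, edgeR quasi-likelihood test, Benjamini-Hochberg). *CCDC6*, a coiled-coil gene expressed in many tissues and the partner of *RET* in the TPC1 rearrangement, ran the other way, with 97.4 and 97.3 CPM in K1 and 3.65 and 2.79 CPM in TPC1 (4.95 ± 0.118, adjusted p = 2.93e-15 in the same edgeR quasi-likelihood test). Both genes lie on chromosome 10. The table gives 1 count per gene and library, so which exons the reads covered was not measured. *BRAF*, the kinase upstream of MEK and ERK, was at 12.5 and 13.8 CPM against 12.7 and 10.5 CPM and was not called (0.19 ± 0.126). The values of these libraries overlap.

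**Figure D1:**
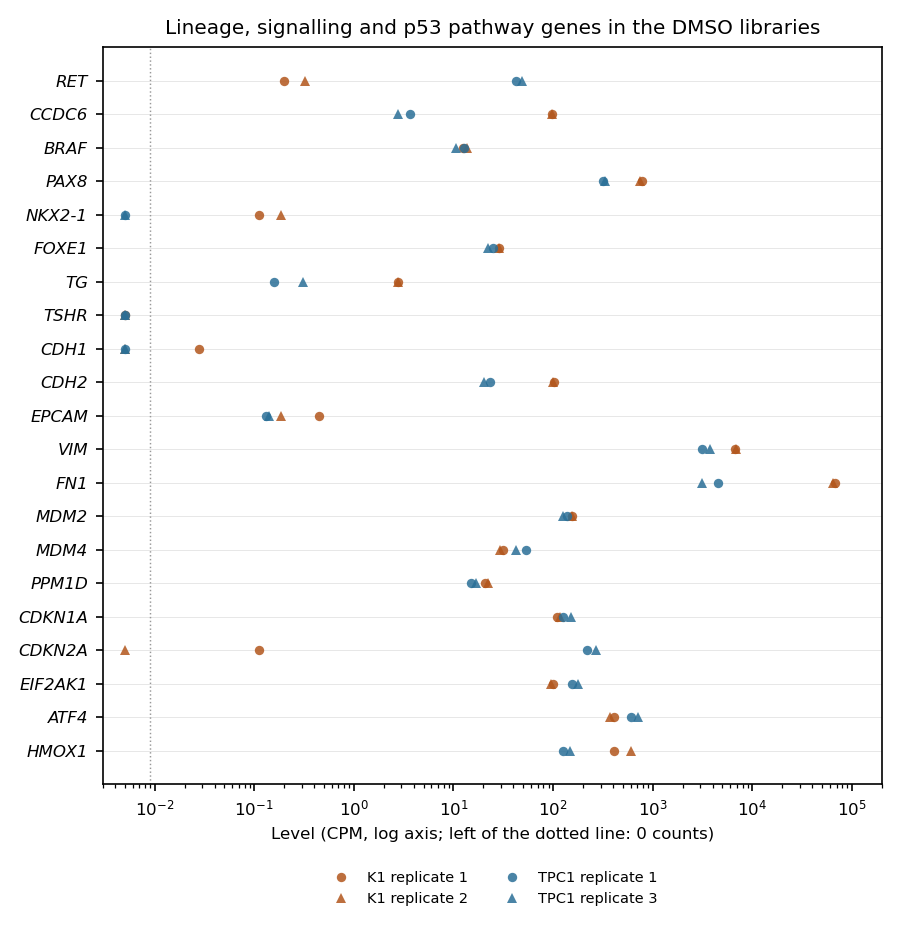
Levels of lineage, signalling and p53 pathway genes in each DMSO library, as CPM on a logarithmic axis, with a point for each K1 and TPC1 library. *RET* and *CDKN2A* separate the lines toward TPC1, *CCDC6* and *FN1* toward K1, and *BRAF*, *MDM2* and *FOXE1* lie close together.

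E-cadherin (*CDH1*), the adhesion molecule that holds epithelial sheets together, had 1 count in K1 replicate 1 and none in the other libraries. *EPCAM*, a surface glycoprotein of epithelia, was at 0.451 and 0.187 CPM in K1 and 0.132 and 0.140 CPM in TPC1 and was not called. The lines thus had E-cadherin and *EPCAM* messages near or at the limit of detection. Of 35 listed epithelial junction, keratin and transcription factor genes 29 were tested, 8 higher in K1 and 15 in TPC1, with a median of −1.26, or −0.74 at the bounds. Without TPC1 replicate 1 the count higher in K1 was 4. Keratin 8 (*KRT8*), a filament protein of simple epithelia, was the most abundant of them in both lines, at 749 and 777 CPM against 441 and 525 CPM. Its difference of 0.66 ± 0.0963 fell to 0.54, no longer called, without TPC1 replicate 1. Desmoplakin (*DSP*), which ties keratin to desmosomes, was at 11.2 and 11.1 CPM in K1 and 0.0792 and 0.252 CPM in TPC1, a difference of 5.85.

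Plakophilin 2 (*PKP2*), another desmosomal protein, had 1 count in K1 and stood at 10.9 and 10.3 CPM in TPC1. Its pooled ratio of TPC1 to K1 was 768, with a 95% counting interval from 137 to 30343. *ELF3*, a transcription factor of epithelia, likewise had 1 count in K1 against 7.53 and 9.56 CPM in TPC1 (ratio 646, interval 116 to 25545). Among these libraries *DSP* was thus nearly confined to K1 and *PKP2* to TPC1. Each was named for a large difference in its direction, so the pair does not describe desmosomal genes as a group. *MAL2*, which serves transport to the apical membrane, was at 0.734 and 0.907 CPM against 17.8 and 18.3 CPM (−4.46 ± 0.174).

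Of 28 genes of mesenchymal cells and epithelial-mesenchymal transition 27 were tested, 18 higher in K1 and 3 in TPC1, with a median of 1.71. N-cadherin (*CDH2*), which often replaces E-cadherin in mesenchymal cells, was at 103 and 99.5 CPM in K1 and 23.1 and 20.2 CPM in TPC1 (2.23 ± 0.0780, adjusted p = 2.69e-13, edgeR quasi-likelihood test, Benjamini-Hochberg). Vimentin (*VIM*), the intermediate filament of mesenchymal cells, was abundant in both lines, at 6631 and 6925 CPM in K1 and 3133 and 3764 CPM in TPC1 (0.97 ± 0.106). *THY1*, a surface glycoprotein of stromal cells, was at 111 and 114 CPM against 0.502 and 0.448 CPM, a difference of 7.90. The BMP antagonist gremlin (*GREM1*) differed by 8.45, with 125 and 158 CPM in K1 and 0.291 and 0.462 CPM in TPC1. *FAP*, a membrane protease of activated fibroblasts, had 1 count in TPC1 and 12.3 and 15.1 CPM in K1, a pooled ratio of 1501 with an interval from 269 to 59354. In the other direction stood *SNAI1*, a repressor of E-cadherin, at 0.959 and 1.31 CPM in K1 and 12.9 and 15.0 CPM in TPC1 (−3.62). The receptor kinase *AXL* was at 344 and 390.1 CPM against 1011 and 926 CPM (−1.40).

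HOX factors mark position along the body axis, and of 39 listed genes 20 were tested, 11 higher in K1 and 2 in TPC1, with a median of 4.18, or 2.16 at the bounds. Another 13 had no count in the 4 libraries. *HOXB7* was at 11.5 and 12.96 CPM in K1 with no count in TPC1, at least 447-fold higher. Its neighbour *HOXB6* had 1 count in TPC1 and 11.03 and 12.8 CPM in K1 (ratio 1304, interval 233 to 51543). *HOXB3*, from the same cluster on chromosome 17, was at 10.3 and 9.60 CPM against 0.185 and 0.126 CPM (6.05 ± 0.198). The higher values thus came from the HOXB cluster in K1, whereas in TPC1 no HOX gene passed a mean of 2.17 CPM, the level of *HOXA5*.

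Fibronectin (*FN1*), a matrix glycoprotein that cells bind through integrins, took the largest share of counts of any gene tested in K1. It was at 67940.0 and 64090.0 CPM in K1 and 4480.0 and 3116 CPM in TPC1, a difference of 4.12 ± 0.213 (adjusted p = 3.52e-11, edgeR quasi-likelihood test, Benjamini-Hochberg). It made up 6.85% and 6.47% of all counts in K1 and 0.460% and 0.307% in TPC1. Per kilobase of exon its mean level was 3834 RPKM (CPM divided by exon length in kilobases) in K1 and 221 in TPC1, beside 1724 and 1581 RPKM for the cytoskeletal gene *ACTB*. The 5 most abundant autosomal genes together took 9.68% and 9.47% of a K1 library and 3.16% and 3.52% of a TPC1 library. *ACTB* (0.12 ± 0.101), *ACTG1* (0.04 ± 0.0977) and the glycolytic *GAPDH* (−0.01 ± 0.115), all among the 5 most abundant in a line, were not called. *EEF1A1*, a translation elongation factor, was not called either (−0.47 ± 0.119), but reached −0.61 and was called higher in TPC1 without TPC1 replicate 1. Glycolytic *ENO1* was higher in TPC1 (−0.87), and ferritin heavy chain (*FTH1*), which stores iron, was higher in K1 (1.46).

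Of 41 collagen chains 33 were tested, 15 higher in K1 and 9 in TPC1, with a median of 0.82. *COL6A3*, a chain of the beaded filament collagen VI, led in K1 with 2309.6 and 1964 CPM against 8.69 and 6.64 CPM in TPC1 (8.14 ± 0.153, adjusted p = 3.56e-16, edgeR quasi-likelihood test, Benjamini-Hochberg). *COL9A3*, a chain of collagen IX, differed by 5.07, from 7.08 and 8.48 CPM in K1 to 0.238 and 0.224 CPM in TPC1. *COL7A1*, which forms anchoring fibrils beneath epithelia, stood at 151 and 139.7 CPM against 33.4 and 23.3 CPM (2.37). Other named collagens were higher in TPC1. *COL18A1*, the source of endostatin, was at 5.39 and 4.85 CPM in K1 and 194 and 169 CPM in TPC1 (−5.15 ± 0.114). *COL4A4*, a network chain of basement membranes, was at 0.197 and 0.187 CPM against 9.32 and 6.52 CPM (−5.33), and *COL27A1*, a fibrillar collagen, differed by −1.44.

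Of 16 laminin, nidogen and basement membrane proteoglycan genes all were tested, and 3 were higher in each line, a share of 37.5% with a median of −0.01, so the list as a whole stood near the background. Laminin alpha chains carry the sites that cells bind, and those named here for large differences lay in both directions. *LAMA4*, of vessels and mesenchyme, was at 154 and 148 CPM in K1 and 0.0264 and 0.0560 CPM in TPC1 (11.60 ± 0.2501, adjusted p = 1.02e-15, edgeR quasi-likelihood test, Benjamini-Hochberg). *LAMA5*, of mature epithelial basement membranes, was at 3.22 and 3.31 CPM in K1 and 224 and 142 CPM in TPC1 (−5.80 ± 0.252, adjusted p = 3.81e-12 in the same edgeR quasi-likelihood test). *LAMA1*, of embryonic basement membranes, was higher in K1, at 5.53 and 7.84 CPM against 0.132 and 0.182 CPM. The proteoglycan perlecan (*HSPG2*) was at 92.1 and 81.5 CPM against 449 and 259.5 CPM (−2.03 ± 0.209). Nidogen 1 (*NID1*), which links laminin to collagen IV, differed by −0.59 ± 0.0910 and was not called without TPC1 replicate 1 (−0.50) or without K1 replicate 2 (−0.51).

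Among 66 matrix glycoprotein, proteoglycan and crosslinking genes 55 were tested, 24 higher in K1 and 20 in TPC1, with a median of 0.22. Most of the genes tested were thus called, and they were split between the lines. Thrombospondins are secreted proteins that bind matrix and cell surfaces, and *THBS1* and *THBS2* were named for large differences in opposite directions. They do not describe the family. *THBS1* was at 16.5 and 21.4 CPM in K1 and 2661 and 2183 CPM in TPC1 (−7.00 ± 0.288, adjusted p = 1.94e-12, edgeR quasi-likelihood test, Benjamini-Hochberg), and *THBS2* was at 112 and 107.7 CPM in K1 and 0.185 and 0.154 CPM in TPC1 (9.35 ± 0.199, adjusted p = 9.18e-16 in the same edgeR quasi-likelihood test). *HAS2*, which makes hyaluronan, was at 15.9 and 17.7 CPM against 0.185 and 0.112 CPM, and the CCN family protein *WISP1* was at least 263-fold higher in K1, at 7.81 and 6.64 CPM with no count in TPC1. Higher in TPC1 were *EFEMP1*, a fibulin (11.5 and 11.8 CPM against 341 and 384 CPM, −4.96), and *LOXL4*, a lysyl oxidase-like enzyme of collagen crosslinking (0.0564 and 0.160 CPM against 13.9 and 14.7 CPM, −6.99).

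**Figure D2:**
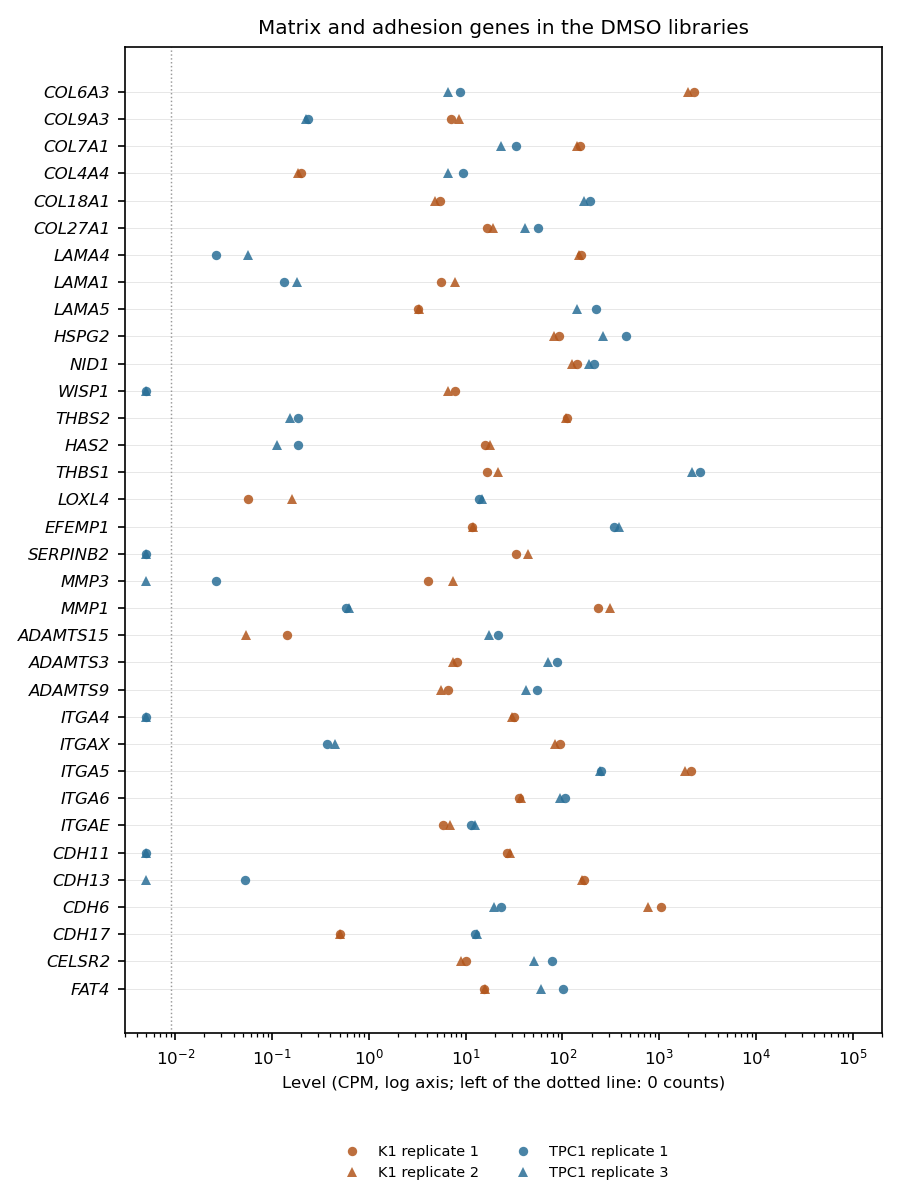
Levels of named matrix and adhesion genes in each DMSO library, as CPM on an axis with a logarithmic scale. *LAMA4*, *THBS2* and *COL6A3* are high in both K1 libraries, and *LAMA5*, *THBS1* and *COL18A1* in both TPC1 libraries.

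Proteases and their inhibitors remodel this matrix, and of 46 listed 40 were tested, 20 higher in K1 and 10 in TPC1, with a median of 0.73. The collagenase *MMP1* was at 234 and 309.7 CPM in K1 and 0.581 and 0.630 CPM in TPC1 (8.79 ± 0.271, adjusted p = 5.87e-14, edgeR quasi-likelihood test, Benjamini-Hochberg). *SERPINB2*, an inhibitor of plasminogen activators, reached 33.1 and 43.8 CPM in K1 without a count in TPC1, at least 1406-fold higher. *MMP3*, stromelysin 1, had 1 count in TPC1 and 4.12 and 7.33 CPM in K1. The genes higher in TPC1 that were named belong to the ADAMTS family of secreted proteases. *ADAMTS15* was at 0.141 and 0.0533 CPM in K1 and 21.7 and 17.4 CPM in TPC1 (−7.62), *ADAMTS3*, which processes procollagen, differed by −3.33, and *ADAMTS9* by −2.99.

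Of 26 integrin subunits 24 were tested, 14 higher in K1 and 6 in TPC1, with a median of 1.03, or 0.98 at the bounds. *ITGA5*, the alpha subunit of the main fibronectin receptor, was at 2124 and 1829.6 CPM in K1 and 251 and 243 CPM in TPC1 (3.001 ± 0.104, adjusted p = 2.28e-13, edgeR quasi-likelihood test, Benjamini-Hochberg). Fibronectin and this receptor subunit were thus both higher in K1. *ITGA4*, which binds fibronectin and VCAM1, was at 31.5 and 30.3 CPM in K1 and had no count in TPC1, at least 1125-fold higher. *ITGAX*, a subunit best known from dendritic cells, was at 93.9 and 83.6 CPM against 0.370 and 0.448 CPM (7.71). The laminin receptor subunit *ITGA6* was higher in TPC1, at 35.5 and 37.0 CPM against 106 and 95.4 CPM (−1.48), as was *ITGAE*, which pairs with beta 7 to bind E-cadherin (−0.90).

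Of 45 cadherins 34 were tested, 18 higher in K1 and 10 in TPC1, with a median of 1.09. *CDH6*, a cadherin of kidney and neural tissue, was the most abundant in K1, at 1053 and 771 CPM against 23.1 and 19.6 CPM (5.42 ± 0.214, adjusted p = 1.14e-12, edgeR quasi-likelihood test, Benjamini-Hochberg). *CDH11*, of mesenchymal cells, reached 26.7 and 29.0 CPM in K1 without a count in TPC1, at least 1015-fold higher. *CDH13*, anchored by a lipid and without a cytoplasmic domain, had 2 counts in TPC1 and 167 and 158 CPM in K1, a ratio of 8852 with an interval from 2450.0 to 73105. TPC1 was higher in *CDH17*, a cadherin of intestine, at 0.508 and 0.507 CPM against 12.4 and 12.98 CPM (−4.64). *CELSR2* (−2.76) and *FAT4* (−2.35), large cadherins of planar polarity, were also higher in TPC1. Their relative *CELSR1*, named after its values were seen, was higher in K1, at means of 156.89 CPM in K1 and 104.37 CPM in TPC1 (0.591).

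Of 43 immunoglobulin-family and other adhesion molecules 40 were tested, 20 higher in K1 and 12 in TPC1, with a median of 0.80. *NRCAM*, a neuronal adhesion molecule, was at 21.6 and 17.4 CPM in K1 and 0.264 and 0.350 CPM in TPC1 (5.92), and *CNTN1*, a contactin, differed by 7.98. *MCAM*, an endothelial and melanoma adhesion molecule, was at 8.29 and 9.39 CPM in K1 and 119.7 and 122 CPM in TPC1 (−3.77 ± 0.0818, adjusted p = 1.08e-15, edgeR quasi-likelihood test, Benjamini-Hochberg). The laminin receptor *BCAM* (−3.79) and the leukocyte ligand *ICAM1* (−3.56) were higher in TPC1 too. Of 26 claudin and tight junction genes 18 were tested, 5 higher in K1 and 8 in TPC1, with a median of −0.76, or −0.36 at the bounds. *CLDN14* was at least 515-fold higher in K1, at 14.0 and 14.3 CPM with no count in TPC1, and *CLDN11* (6.68) and *CLDN15* (1.06) were higher in K1 as well. *CLDN16*, a claudin of the kidney, was at 0.254 and 0.347 CPM against 14.1 and 11.5 CPM (−5.39), and the scaffold genes *CGN* (−3.28) and *TJP1* (−1.38) were higher in TPC1.

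**Figure D3:**
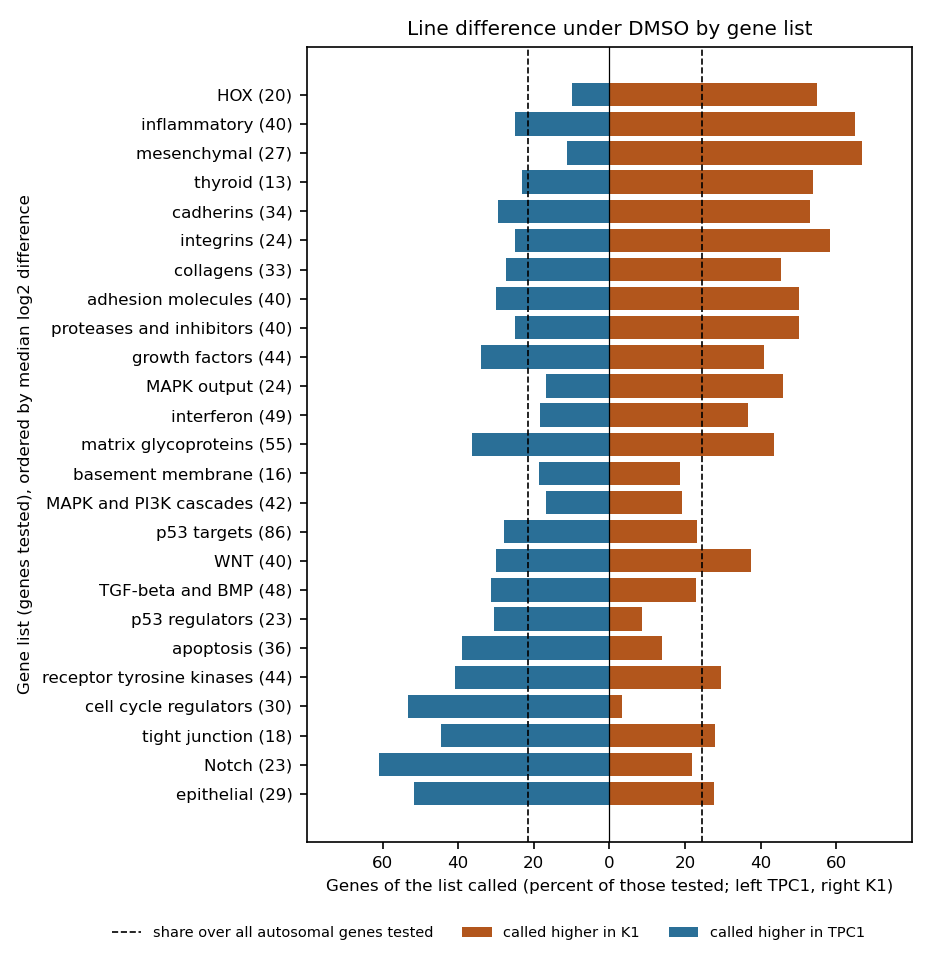
Percent of the tested genes of each list that were called higher in TPC1 (left) or in K1 (right), with lists ordered by median log2 difference and dashed lines at the shares over all autosomal genes tested. Mesenchymal, inflammatory and integrin genes extend toward K1, and Notch, epithelial and cell cycle genes toward TPC1.

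Of 54 receptor tyrosine kinases 44 were tested, 13 higher in K1 and 18 in TPC1, with a median of −0.51. *FGFR4*, a receptor of fibroblast growth factors, was at 0.367 and 0.4 CPM in K1 and 37.6 and 37.4 CPM in TPC1 (−6.60 ± 0.157, adjusted p = 2.93e-15, edgeR quasi-likelihood test, Benjamini-Hochberg), and *NTRK3*, a neurotrophin receptor, differed by −6.21. Higher in K1 were *KDR*, the main VEGF receptor, with 2 counts in TPC1 and 7.50 and 7.55 CPM in K1 (ratio 411, interval 113 to 3404), the orphan receptor *TIE1* (4.16) and the ephrin receptor *EPHB1* (3.53). Of 57 ligands of such receptors and their coreceptors 44 were tested, 18 higher in K1 and 15 in TPC1, with a median of 0.49. *GFRA1*, the coreceptor through which GDNF activates RET, had 1 count in K1 and stood at 142 and 133 CPM in TPC1, a ratio of 9939 with an interval from 1784 to 392600.0. *GDNF* itself was higher in K1, at 15.2 and 19.3 CPM against 1.37 and 1.47 CPM (3.59 ± 0.172). *HBEGF* (2.99) and *NRG2* (1.91), ligands of the EGF receptor family, were higher in K1, while *FGF11* (−4.13) and *EFNA1*, with 2 counts in K1 and 17.9 and 20.6 CPM in TPC1, were higher in TPC1.

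Of 42 proteins of the RAS, RAF, MEK, ERK and PI3K cascades all were tested, 8 higher in K1 and 7 in TPC1, a share of 35.7% that lies below the background, with a median of −0.03. The adaptors *SHC3* and *SHC2* were named for large differences in opposite directions and do not describe adaptors as a group. Their relative *SHC1*, the most abundant gene of the list in both lines, averaged 531 CPM in K1 and 643 CPM in TPC1. *SHC3* was at 79.6 and 69.3 CPM in K1 and 2.30 and 1.65 CPM in TPC1 (5.28 ± 0.197), whereas *SHC2* was at least 148-fold higher in TPC1, at 5.89 and 6.202 CPM with no count in K1. The PI3K regulatory subunit *PIK3R1* (1.83) and the small GTPase *RRAS* (1.40) were higher in K1, and the phosphatases *INPP4B* (−1.76) and *PHLPP1* (−1.36), which counter PI3K and AKT, were higher in TPC1. Of 24 genes tested, out of 25 listed as transcriptional output and feedback of ERK, 11 were higher in K1 and 4 in TPC1, with a median of 0.39. The ERK phosphatase *DUSP4* was at 50.3 and 47.3 CPM in K1 and 3.67 and 3.93 CPM in TPC1 (3.67 ± 0.103, adjusted p = 1.67e-14, edgeR quasi-likelihood test, Benjamini-Hochberg). *PLAUR*, the urokinase receptor (1.93), and the cytokine *LIF* (1.76) were higher in K1 too. The feedback inhibitor *SPRY1* was at 1.02 and 0.773 CPM against 11.2 and 10.6 CPM (−3.60), and the growth regulator *MYC* at 58.8 and 72.0 CPM against 302 and 336 CPM (−2.29 ± 0.135), while *EPHA2*, an ephrin receptor, differed by −0.97.

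Of 53 TGF-beta and BMP pathway genes 48 were tested, 11 higher in K1 and 15 in TPC1, with a median of −0.10. The ligands *BMP2* and *TGFB2* were named for large differences in opposite directions, and other ligands were not counted apart. *BMP2* was at 227 and 191 CPM in K1 and 0.343 and 0.336 CPM in TPC1 (9.26 ± 0.198, adjusted p = 9.52e-16, edgeR quasi-likelihood test, Benjamini-Hochberg), while *TGFB2* was at 1.89 and 2.0 CPM in K1 and 42.8 and 40.7 CPM in TPC1 (−4.42). *TGFBI*, a matrix protein induced by TGF-beta, was at 2021 and 1804 CPM against 73.7 and 82.2 CPM (4.62), whereas the signal transducer *SMAD3* (−1.95) and the BMP target *ID2* (−2.25) were higher in TPC1. Of 57 WNT pathway genes 40 were tested, 15 higher in K1 and 12 in TPC1, with a median of −0.08. The WNT antagonist *SFRP1* had 1 count in TPC1 and 126 and 109 CPM in K1, a ratio of 12790.0 with an interval from 2295 to 505250.0. *LRP5*, a WNT coreceptor, was at 0.734 and 1.23 CPM in K1 and 139 and 127 CPM in TPC1 (−7.07 ± 0.150). The R-spondin receptor *LGR5* (3.91) and the transcription factor *TCF7* (2.81) were higher in K1, and the ligand *WNT10B* (−4.48) and the receptor *FZD7* (−2.58) in TPC1.

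Of 27 Notch pathway genes 23 were tested, 5 higher in K1 and 14 in TPC1, with a median of −0.87. *NOTCH3* was at 0.254 and 0.320 CPM in K1 and 31.1 and 25.0 CPM in TPC1 (−6.59 ± 0.281, adjusted p = 3.07e-12, edgeR quasi-likelihood test, Benjamini-Hochberg). *LFNG*, which adds sugars to Notch receptors, was at 0.310 and 0.373 CPM against 58.2 and 57.1 CPM (−7.38), and the ligand *DLL1* differed by −7.29. The ligand *JAG1* was the reverse, at 109 and 101 CPM in K1 and 9.01 and 8.04 CPM in TPC1 (3.63 ± 0.0854). *NOTCH4* (5.09) and the Notch target *HEY1* (2.32) were higher in K1 as well. *NOTCH2*, named after its values were seen, was the most abundant member of the list in both lines, at 906.7 and 831 CPM in K1 and 362 and 239 CPM in TPC1 (1.53 ± 0.194).

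Of 25 listed regulators of p53, 23 were tested, 2 higher in K1 and 7 in TPC1, a share of 39.1% with a median of −0.13. *MDM2*, which marks p53 for degradation and is also its target, was at 154 and 155 CPM against 139 and 125 CPM and was not called (0.23 ± 0.0821). *MDM4*, which blocks p53 at its promoters, was at 31.2 and 29.1 CPM against 53.5 and 42.3 CPM (−0.66 ± 0.106) and was not called without TPC1 replicate 1 (−0.49). *PPM1D*, the phosphatase that GSK2830371 inhibits, was at 20.7 and 22.3 CPM against 14.8 and 16.9 CPM, a difference of 0.44 ± 0.0990 that fell short of the 1.5-fold limit. Of these 3 repressors only *MDM4* was thus called. The kinase *HIPK2* (1.27) and the p53 binding protein *TP53BP2* (0.77) were higher in K1, and the inhibitor *PPP1R13L* (−1.53) and the checkpoint kinase *CHEK2* (−1.20) in TPC1.

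Of 91 genes widely described as direct p53 targets, 86 were tested, 20 higher in K1 and 24 in TPC1, with a median of −0.06, and the share called was 51.2%. *CDKN1A*, the CDK inhibitor p21, was at 109 and 116 CPM in K1 and 125 and 152 CPM in TPC1 and was not called (−0.30 ± 0.105). Single targets lay far apart all the same. *GDF15*, a secreted stress factor, was at 0.451 and 0.240 CPM in K1 and 105 and 129 CPM in TPC1 (−8.41 ± 0.206, adjusted p = 3.9e-15, edgeR quasi-likelihood test, Benjamini-Hochberg). *THBS1*, described above, and the lipid transfer protein *PLTP* (−2.65) were also higher in TPC1. *SPATA18*, a regulator of mitochondrial quality, was at 17.1 and 16.03 CPM in K1 and 0.0264 and 0.0560 CPM in TPC1 (8.41), and *POU2F2*, an octamer-binding factor (7.63), and *TRIM22*, an antiviral protein (7.49), were higher in K1.

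Over all genes tested 25.0% were higher in K1 and 24.3% in TPC1 under nutlin, 25.7% and 25.2% under both drugs, and 23.5% and 21.5% under GSK2830371. With nutlin 9 of the 86 targets were higher in K1 and 53 in TPC1 (median −1.13), and with both drugs 7 and 57 (median −1.23), whereas GSK2830371 alone gave 25 and 18 (median 0.15). *CDKN1A* averaged 1011 CPM in K1 and 6908 CPM in TPC1 under nutlin, a difference of −2.77, which departed from that under DMSO by −2.48 ± 0.149 (adjusted p = 4.34e-09, edgeR quasi-likelihood test, Benjamini-Hochberg). *MDM2* averaged 1273 and 4208 CPM, and its difference changed by −1.95 ± 0.116 (adjusted p = 4.02e-09 in the same edgeR quasi-likelihood test). Both genes stood close together in the untreated lines and apart once nutlin was present. *HMOX1*, the enzyme that degrades heme, did the opposite, at 407 and 598 CPM in K1 and 126 and 148 CPM in TPC1 under DMSO (1.87 ± 0.237) and a mean of 500.2 and 469 CPM under nutlin (0.09). That change was −1.78 ± 0.327 (adjusted p = 0.000543, edgeR quasi-likelihood test, Benjamini-Hochberg). The heme-regulated kinase *EIF2AK1* was at 101 and 95.8 CPM against 155 and 178 CPM (−0.76 ± 0.0828), and *ATF4*, the transcription factor whose translation such kinases raise, at 411 and 375 CPM against 606 and 704 CPM (−0.74 ± 0.0873), so both messages were higher in untreated TPC1.

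Of 30 cell cycle genes, which were CDK inhibitors, cyclins, CDKs, RB and E2F family members, CDC25 phosphatases and *MTAP*, a neighbour of *CDKN2A*, all were tested, 1 higher in K1 and 16 in TPC1, with a median of −0.63. The gene higher in K1 was the S phase kinase *CDK2* (0.94 ± 0.0945), and without K1 replicate 2 there were 2. Under nutlin 15 of the 30 were higher in K1 and 7 in TPC1 (median 0.37), beside 25.0% and 24.3% of all genes tested, and the change of the list was not tested. *CDKN2A*, which encodes the inhibitors p16 and p14ARF, was at 0.113 and 0 CPM in K1 and 217 and 271 CPM in TPC1 (−12.04 ± 0.275, adjusted p = 1.49e-13, edgeR quasi-likelihood test, Benjamini-Hochberg). *CDKN2B*, its neighbour and also a CDK inhibitor, had no count in K1 and 8.61 and 8.32 CPM in TPC1, at least 205-fold higher. *MTAP*, a methionine salvage enzyme beside them, had none in K1 and 66.4 and 65.6 CPM in TPC1, at least 1602-fold higher.

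These 3 genes follow each other on chromosome 9 between 21802635 and 22009304 in GRCh37. Over all 8 K1 libraries, treated ones included, *MTAP* and *CDKN2B* had 0 counts and *CDKN2A* had 4, all in K1 replicate 1 under DMSO. Farther out *DMRTA1*, chosen after its values were seen like the other neighbours, also had 0 counts in K1 and 2.17 and 2.27 CPM in TPC1. Genes on either side were expressed in K1, *KLHL9* at 62.2 and 55.5 CPM and *MIR31HG* at 20.7 and 19.4 CPM before *MTAP*, and *ELAVL2* at 17.8 and 17.9 CPM and *TUSC1* at 21.9 and 21.98 CPM after *DMRTA1*. The long noncoding *CDKN2B-AS1*, which overlaps *CDKN2B*, had 35 counts over the 8 K1 libraries and 912 over those of TPC1. Whether the genes are present in the K1 genome was not tested, since only RNA was measured.

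**Figure D4:**
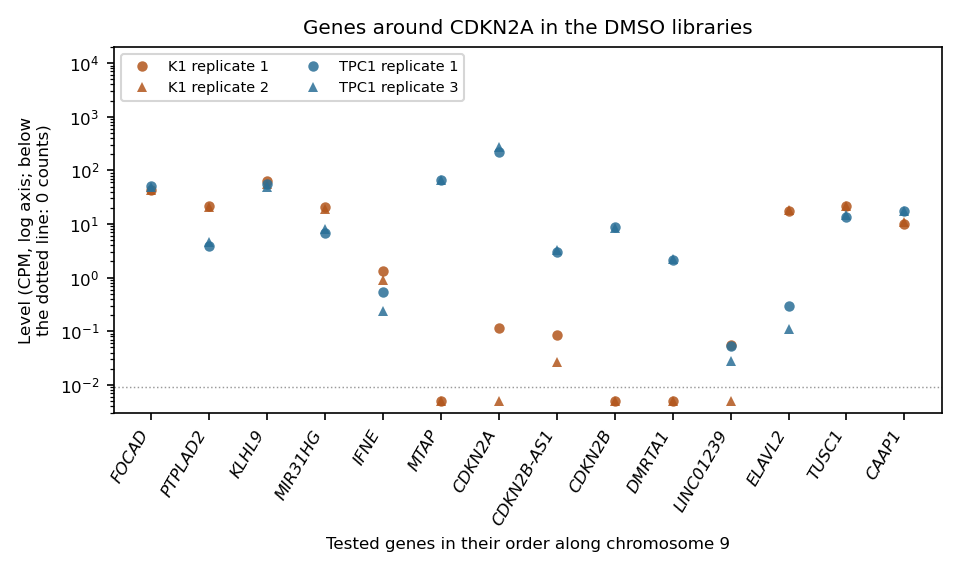
Levels of *CDKN2A* and its neighbours on chromosome 9 in each K1 and TPC1 library under DMSO, in the order of the genes, as CPM on a logarithmic axis. *MTAP*, *CDKN2B* and *DMRTA1* are at 0 in K1, where genes on both sides are expressed.

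Of 38 apoptosis genes 36 were tested, 5 higher in K1 and 14 in TPC1, with a median of −0.27. The BCL2 relative *BCL2A1*, which protects cells, was at 19.6 and 22.8 CPM in K1 and 0.819 and 0.966 CPM in TPC1 (4.54 ± 0.204), *BCL2* differed by 2.23 and the inflammatory caspase *CASP1* by 5.78. Higher in TPC1 were the proapoptotic *BOK* (3.44 and 4.75 CPM against 47.9 and 50.4 CPM, −3.58 ± 0.126), the inhibitor of apoptosis *BIRC3* (−2.57) and the death receptor *TNFRSF10A* (−2.46). Among the genes named, protective messages were thus found on each side, and the proapoptotic *BOK* was higher in TPC1.

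Cytokines, chemokines and inflammatory mediators had the largest share called of the pathway lists, 90.0%. Of 49 listed 40 were tested, 26 higher in K1 and 10 in TPC1, with a median of 2.03. Interleukin 33 (*IL33*), an alarmin of barrier cells, was at 2393 and 1905 CPM in K1 and 0.370 and 0.0140 CPM in TPC1 (13.88 ± 0.537, adjusted p = 8.66e-13, edgeR quasi-likelihood test, Benjamini-Hochberg). *IL1B*, a central inflammatory cytokine, was at 718 and 731 CPM against 0.343 and 0.154 CPM (11.66 ± 0.169), and the granulocyte factor *CSF3* at 613 and 615 CPM against 0.0264 and 0.0420 CPM (13.92 ± 0.269). All of them were abundant in both K1 cultures and near the limit of detection in TPC1. In TPC1 the prostacyclin synthase *PTGIS* was at 31.5 and 28.4 CPM against 0.423 and 0.320 CPM in K1 (−6.33), the cyclooxygenase *PTGS1* differed by −6.14, and the acute phase gene *SAA1* had 1 count in K1 and 5.39 and 8.23 CPM in TPC1. Of 52 interferon-stimulated and antigen presentation genes 49 were tested, 18 higher in K1 and 9 in TPC1, with a median of 0.30. The antiviral *MX1* (5.16), *OASL* (3.01) and the immunoproteasome subunit *PSMB9* (2.89) were higher in K1, and *IFITM2* (−2.13), *IFITM3* (−1.90) and *IFIT2* (−1.65), also antiviral, in TPC1.

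Genes restricted to a line were taken as those under a mean of 0.1 CPM in one line and at 5 CPM or more in the other. There were 132 in K1, of which 53 had no count in the TPC1 DMSO libraries and 28 none in any of the 8 TPC1 libraries. TPC1 had 75, of which 20 had no count in the K1 DMSO libraries and 12 none in all 8. All 132 of the K1 genes and 74 of the TPC1 genes had the same call under every treatment. A kept call does not mean that a gene stayed absent from the other line. *CSTA*, an example chosen after its values were seen, had 3 counts in the TPC1 DMSO libraries and 746 over all 8 TPC1 libraries. The largest differences of genes that averaged 20 CPM or more in a line belonged mostly to such genes. *XYLT1*, which starts the sugar chains of proteoglycans, was at 74.4 and 64.4 CPM in K1 with no count in TPC1, at least 2524-fold higher. *ANPEP*, a membrane aminopeptidase, had 3 counts in TPC1 and 409.6 and 423 CPM in K1 (ratio 15163, interval 5188 to 73532), and *FOXD1*, a forkhead factor, had 1 count in TPC1 and 136 and 144 CPM in K1. *TEKT4P2*, *CSMD2*, *PRKG2* and *TMEM98* were each at least 1203-fold higher in K1.

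On the TPC1 side *PLIN2*, which coats lipid droplets, was at 41.3 and 49.95 CPM with no count in K1, at least 1142-fold higher. *NFATC1*, a calcium-regulated transcription factor, was at least 749.5-fold higher, and *LRRC61* at least 678-fold higher. *PAX2*, a relative of *PAX8* from the kidney lineage, was at 22.98 and 19.7 CPM in TPC1 and had no count in K1, at least 506-fold higher. The lines therefore shared *PAX8* but not *PAX2*. The scavenger receptor *SCARA3* had 2 counts in K1 and 296 and 289.8 CPM in TPC1, a ratio of 10652 with an interval from 2948 to 87957. *TM4SF18*, a tetraspan membrane protein (104 and 121 CPM), and *HAVCR1*, known as a marker of kidney injury (168 and 128 CPM), likewise had 1 and 2 counts in K1.

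Differences were not spread evenly over the chromosomes. On chromosome 10, which carries *RET*, *CCDC6* and *GFRA1*, 298 of 642 genes tested (46.4%) were higher in TPC1 and 106 (16.5%) in K1, with a median of −0.60. The median there was −0.67 under GSK2830371, −0.64 under nutlin and −0.66 under both drugs. Chromosomes 8 (−0.32) and 9 (−0.27) had the next lowest medians, and chromosomes 20 (0.35), 5 (0.29) and 3 (0.28) the highest. Copy number was not measured, and its part in these medians was not tested.

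**Figure D5:**
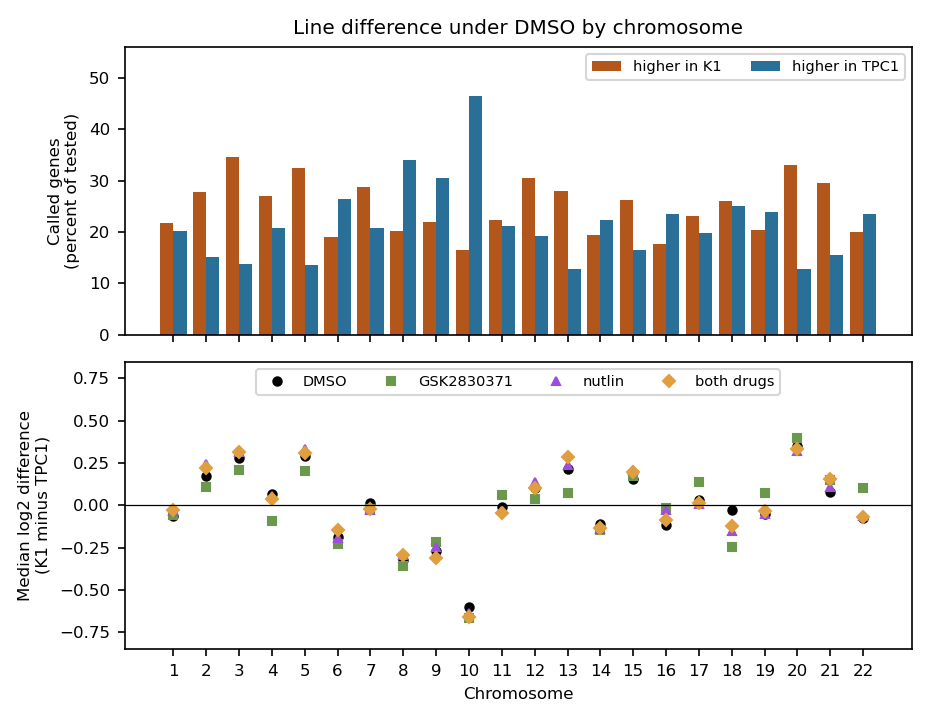
Percent of the genes tested on each autosome that were called under DMSO (upper axis), and median log2 difference of K1 minus TPC1 under each treatment (lower axis). Under DMSO the median is lowest on chromosome 10, at −0.60, and highest on chromosome 20, at 0.35.

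The differences were looked for again in cultures that received a drug, which share no library with the DMSO comparison but entered the same fit. The same rule called 6918 genes (45.0%) under GSK2830371, 7576 (49.3%) under nutlin and 7815 (50.8%) under both drugs. Of the 3755 genes higher in K1 under DMSO, 3088 (82.2%) were also higher under GSK2830371, which is 85.3% of the 3619 called there. Of the 3321 higher in TPC1, 2723 (82.0%) were shared, or 82.5% of 3299. Under nutlin the shared genes were 2781 (74.1%, and 72.5% of 3837) and 2475 (74.5%, and 66.2% of 3739). Under both drugs they were 2679 (71.3%, and 67.9% of 3946) and 2322 (69.9%, and 60% of 3869). In all 4 treatments 2305 genes (61.4%) were higher in K1 and 1998 (60.2%) in TPC1. Most calls of the untreated lines thus recurred in the treated cultures, fewest with both drugs. The cultures are not independent, since TPC1 libraries with the same replicate number deviated together across treatments (correlations from 0.458 to 0.679 over 6 pairs of treatments, against −0.363 to 0.372 in K1).

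Promoter sequence was compared because RefSeq gives the 250 bases before the start (GRCh38.p14) for 11039 of the 15374 genes and 114 of the named genes. Of 26246 promoters, 467 (1.78%) held the cAMP response element TGACGTCA, which reads the same on both strands, and 1081 (4.12%) held the AP-1 element TGAGTCA or its reverse TGACTCA. Among genes tested the cAMP element was in 52 of 2667 promoters of genes higher in K1 (1.95%), 66 of 2320 higher in TPC1 (2.84%) and 181 of 6052 not called (2.99%). The AP-1 element was in 99 (3.71%), 71 (3.06%) and 165 (2.73%) of them. Named genes with the cAMP element were *EPHA2*, *FN1*, *MCAM* and *PPM1D*, and those with the AP-1 element *CLDN15*, *NOTCH4* and *PLAUR*. A pair for each element, chosen after their values were seen, is printed 5′ to 3′ with the match in capitals, to show its setting in genes that were higher in K1 (*FN1*, *PLAUR*, *NOTCH4*) or TPC1 (*MCAM*). All are on the minus strand, at chr2:215436204-215436291, chr11:119317131-119317202, chr19:43670309-43670395 and chr6:32224068-32224125 in turn. A match is a description of letters and not a bound site.
FN1: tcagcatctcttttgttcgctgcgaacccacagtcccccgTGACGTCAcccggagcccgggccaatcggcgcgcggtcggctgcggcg
MCAM: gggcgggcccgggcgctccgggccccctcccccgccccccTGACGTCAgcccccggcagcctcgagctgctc
PLAUR: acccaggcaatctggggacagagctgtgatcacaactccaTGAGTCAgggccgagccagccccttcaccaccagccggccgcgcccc
NOTCH4: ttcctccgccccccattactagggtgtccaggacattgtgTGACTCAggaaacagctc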

How the data were processed

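Polyadenylated, stranded RNA of TPC1 and K1 cells was sequenced in 16 libraries, 2 for each of 8 groups of line and treatment. The authors aligned reads to GRCh37 with TopHat2 2.0.13 and made a raw count per gene symbol with HTSeq 0.6.1 (versions from the submitters' processing notes), and the deposited counts were used without change. Genes above 0.1 CPM in at least 2 libraries were kept. All 16 libraries were fitted together in edgeR 4.0.16 (R 4.3.3) with TMM scaling and the quasi-likelihood test, with 8 residual degrees of freedom, and p-values were adjusted by Benjamini-Hochberg over 16738 genes. Genes were placed on GRCh37 with a GENCODE annotation, and RefSeq served here only to match older symbols. The 770 tested symbols that could not be placed and those on X and Y were not counted. Alternatives used DESeq2 1.42.0, other scaling, filters, folds and libraries, a replicate block, and a correction for GC content and length. The steps were also run on simulated counts with a single dispersion, in which only well expressed genes were changed. That run does not cover genes near 0 counts or the wider spread between TPC1 cultures. Tables and plots used Python 3.11.15.

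Genes named are a fixed set of lineage, signalling and p53 genes, in each pathway list the 3 largest called differences per direction at 5 CPM or more without overlap of libraries, the 10 largest per direction over all genes at 20 CPM or more, and the 5 of largest share in each line. Members and lists were chosen with earlier results of these data known. Some genes that this rule selects are not printed.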

Additional observations from a re-analysis of the deposited data

Results flagged for a closer look

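Some genes were called in opposite directions in the untreated lines and in lines that received a drug. Between DMSO and GSK2830371 this held for 3 genes, chosen after their values were seen. The difference of K1 minus TPC1 for *CRISPLD2* changed by 1.88 ± 0.217 on the log2 scale (adjusted p = 0.0014, edgeR quasi-likelihood test, Benjamini-Hochberg), from means of 1.69 and 3.996 CPM to 3.56 and 2.30 CPM. That of *KDM7A* changed by −1.21 ± 0.252 (adjusted p = 0.0186 in the same edgeR quasi-likelihood test), from 8.16 and 5.60 CPM to 7.20 and 11.1 CPM. That of *TNS4* changed by 2.95 ± 0.601 (adjusted p = 0.0172, edgeR quasi-likelihood test, Benjamini-Hochberg), from 0.829 and 1.58 CPM to 0.815 and 0.164 CPM.

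Between DMSO and nutlin 138 genes were called in opposite directions, 74 of them higher in K1 under DMSO and 64 higher in TPC1, and between DMSO and both drugs 196 were, 123 and 73. An example chosen after its values were seen is the proliferation marker *MKI67*, at a mean of 521 CPM in K1 and 1230.0 CPM in TPC1 under DMSO and 208 and 25.7 CPM under nutlin. Why these genes switch was not tested.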

How the results depend on the processing

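Counts of called genes kept within 1.5 times of 3755 and 3321 under every alternative except other fold thresholds. With fold threshold 1 the genes higher in TPC1 under DMSO were 5231, and with fold threshold 4 there were 1662 higher in K1 and 1030 in TPC1, as these thresholds admit more or fewer genes by construction. Leaving out a DMSO library gave 3529 to 3748 genes higher in K1 and 3098 to 3435 in TPC1, taking a lone library to vary as much as libraries elsewhere do. With the replicate number as a block within each line there were 3807 and 3324. Under the alternatives other than fold thresholds no gene called in the comparison of DMSO libraries was called in the opposite direction, and 88.4% (without TPC1 replicate 3) to 99.6% (DESeq2 size factors) of the 7076 were called again. List counts that moved more than 1.5 times, other than by leaving out a library, were melanocyte markers higher in K1 (2, but 1 with the DESeq2 Wald test or the DMSO libraries alone and 0 with filterByExpr), C cell markers higher in K1 (1, but 0 with filterByExpr), fibroblast markers higher in TPC1 (2, but 1 with the DESeq2 Wald test) and cell cycle genes higher in K1 (1, but 3 with GC content and length). Of 170 named genes tested 160 were called, and 157 of these kept their call and direction under each alternative in which they were tested. Named genes were not listed at other fold thresholds, and *NKX2-1* did not pass filterByExpr. The exceptions were *NID1* (−0.58 without a filter or with the DMSO libraries alone, −0.57 with GC content and length), *MDM4* and *KRT8*, while *FOXE1* and *EEF1A1* (−0.65 with GC content and length) gained a call. The cause was not tested. Symbols that could not be placed would add 201 genes higher in K1 and 135 in TPC1.

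Each line was grown in its own medium, so line and medium cannot be told apart. With 2 cultures per line, p-values describe cultures of these lines and no other carcinoma. Genes that did not pass 0.1 CPM in at least 2 of the 16 libraries were not tested. Counts per gene cannot separate exons, alleles or a fusion from its intact genes, and levels of RNA do not give levels of protein.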
